A study of Oryza sativa with 12 samples.

Results

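The plasma membrane intrinsic proteins (PIP) of rice were followed in leaf RNA-Seq libraries as 10 genes taken by locus ID from the deposited count table, out of 36844 features. They comprised 3 genes of the PIP1 subgroup and 7 of the PIP2 subgroup. A further gene named PIP2;8 in RefSeq, on chromosome 3, was not analysed here. Enough counts for a test were reached by 9 of the 10, among 20760 tested features, and PIP2;3 was left out. Names and locus IDs were paired by the list that defined the genes, and the IDs lie on chromosomes 2, 4, 7 and 9.

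PIPs are aquaporins, membrane channels through which water, and in some members small solutes, cross the plasma membrane of plant cells. In maize, PIP1 proteins expressed alone in oocytes give little water transport and reach the plasma membrane together with PIP2 partners, whereas PIP2 proteins are efficient water channels by themselves. In leaves they are known for their part in moving water out of the veins and between mesophyll cells, and salt stress, which lowers the water potential around the roots, is known to alter PIP transcript levels in many plants.

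There were 4 groups of 3 libraries, 12 in all, from 2 genotypes. OLESA is a salt-sensitive *japonica* cultivar, labelled PL12 in the sample titles and taken here as OLESA. IL22 is 1 introgression line derived from it, which carries segments of the salt-tolerant *indica* line FL478, among them the *Saltol* region on chromosome 1, in an OLESA background. Seeds of all groups germinated in water for 7 days and grew for 7 days in hydroponic nutrient solution at 28 °C by day and 26 °C by night, with 14 h of light and 10 h of dark. The OLESA salt and IL22 salt groups then received 80 mM NaCl for 24 h, and the OLESA control and IL22 control groups received none. Each library came from leaves of 4 pooled plants. The p-values measure the spread between such pools.

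The libraries held 11505396 to 23578477 counts, of which 0.189 to 0.267% fell on the 10 PIP genes. Values below are CPM, the counts of a gene scaled to a common library total, after correction by TMM factors, which correct for differences in library composition. Gene lengths were not used here, so levels are compared between groups for 1 gene and not between genes. Replicate 1 of IL22 control stood apart from its group. Its log2 CPM correlated with the other IL22 control libraries at r = 0.942 and 0.937, against 0.966 between those 2. It correlated more highly with each OLESA control library (0.955, 0.965 and 0.954 for replicates 1 to 3). With the IL22 salt libraries r was 0.946, 0.937 and 0.950. The share of all features called moved with this library, as given beside each comparison that uses IL22. The leaf label was not checked against marker genes, since none of the 6 marker IDs listed for it was annotated in the sources used here. In bulk leaf RNA, fewer cells of a type and less RNA per cell cannot be told apart.

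A gene was called changed at an adjusted p of 0.05 or less with a fold change (FC) whose log2 exceeded 0.5 in size, using edgeR's quasi-likelihood test over all 12 libraries with Benjamini-Hochberg adjustment over all tested features. Every adjusted p below comes from that test.

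**Figure D1:**
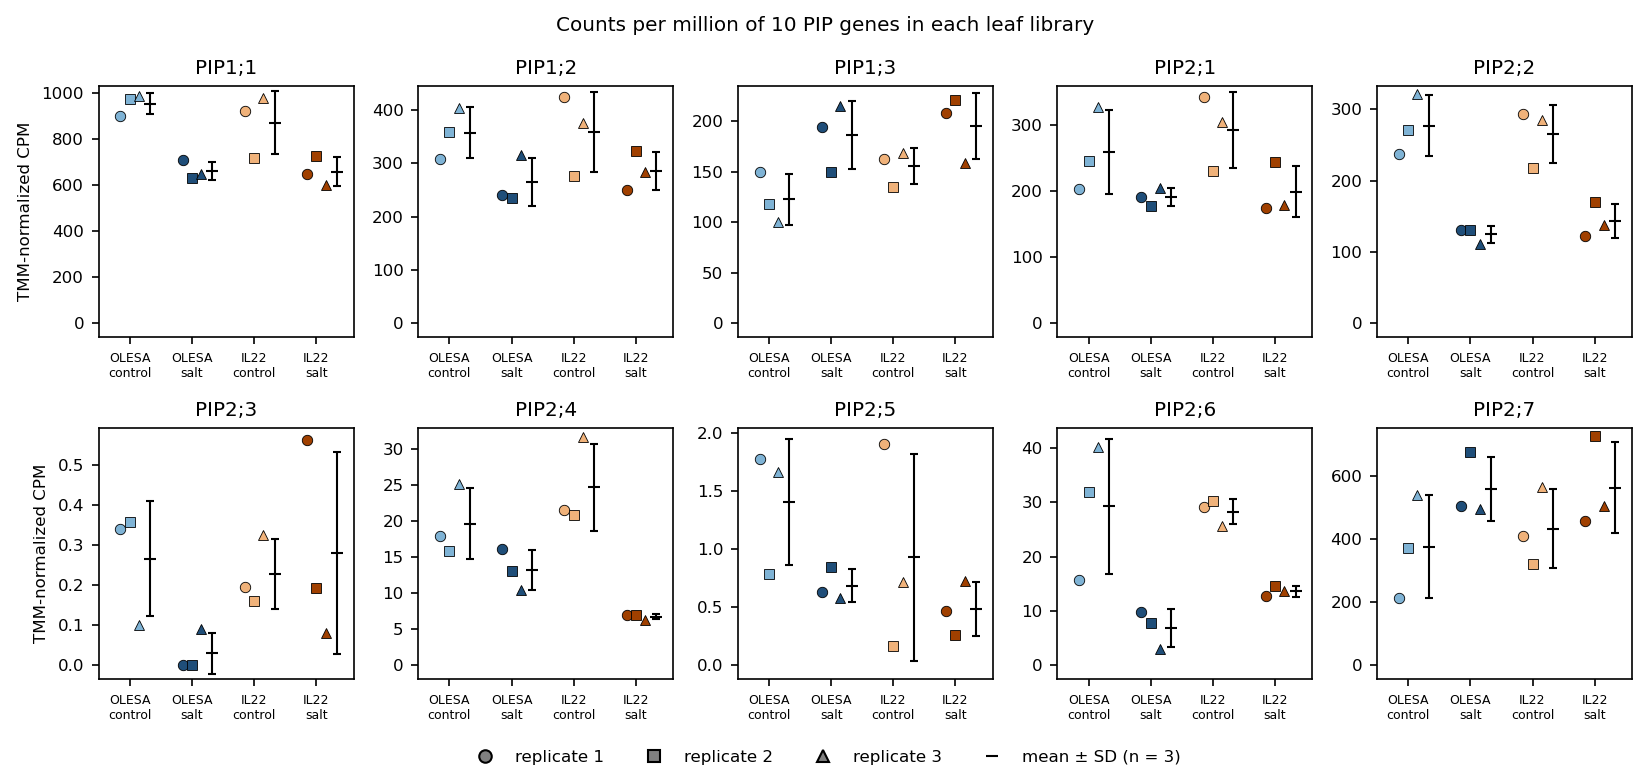
TMM-normalized CPM (vertical axes, linear, a separate scale for each gene) of the 10 PIP genes in the 12 leaf libraries. Each symbol is 1 library, symbol shape gives the replicate number, and bars give the mean ± SD of 3 libraries. In the PIP2;4 panel the 3 IL22 salt libraries sit between 6.28 and 6.94, below the 9 other libraries.

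Among the PIP1 genes, PIP1;1, also known as RWC1, had 902, 977 and 988 CPM in the OLESA control libraries and 708, 634 and 649 in OLESA salt. All salt libraries lay below all controls. Its mean went from 956 ± 46.9 to 664 ± 39.1 CPM (SD, n = 3 per group), a log2 FC of -0.53 (SE 0.15, adjusted p = 0.0284). In IL22 it had 924, 717 and 979 CPM in control and 651, 727 and 601 in salt, so that the lowest control library fell within the range of the salt libraries. The change in IL22 did not pass the test, with a log2 FC of -0.41 (SE 0.15, adjusted p = 0.149).

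PIP1;2 showed the same order of group means without passing the test in either genotype. It had 309, 359 and 405 CPM in OLESA control and 241, 235 and 317 in OLESA salt. In IL22 the values were 426, 277 and 375 in control and 250.5, 323 and 284 in salt. The groups overlapped in both genotypes. The log2 FC was -0.43 in OLESA (SE 0.19, adjusted p = 0.117) and -0.33 in IL22 (SE 0.19, adjusted p = 0.347).

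PIP1;3, also known as RWC3 and described mainly from roots, was the 1 PIP1 gene with higher group means under salt. Its CPM were 149.6, 118 and 100.2 in OLESA control and 194, 149 and 215 in OLESA salt. The highest control library and the lowest salt library met at almost the same value, so the groups overlapped. The log2 FC of 0.60 passed the test (SE 0.20, adjusted p = 0.0426). In IL22 it had 162, 135 and 168 CPM in control and 208, 220.4 and 159 in salt, with overlapping groups and a log2 FC of 0.33 that did not pass (SE 0.19, adjusted p = 0.352).

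Of the PIP2 genes, PIP2;2, a protein with high water channel activity when expressed in yeast, was the one that passed the test in both genotypes. It was lower under salt in each. It had 238, 272 and 322 CPM in OLESA control and 131, 131 and 111 in OLESA salt. In IL22 the values were 294, 218 and 284 in control and 123, 169.8 and 138 in salt. No salt library reached any control library of its genotype. The log2 FC was -1.16 in OLESA (SE 0.18, adjusted p = 0.00165) and -0.89 in IL22 (SE 0.18, adjusted p = 0.0132), and the difference between these responses, 0.27, did not pass its own test (SE 0.25, adjusted p = 0.536, 95% interval -0.27 to 0.80).

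PIP2;6, which conducts arsenite in heterologous expression systems, had the largest log2 FC of the tested PIP genes in OLESA. It was at 15.7, 32.0 and 40.2 CPM in OLESA control and at 9.74, 7.75 and 2.94 in OLESA salt. The salt libraries lay below the controls, and the control libraries differed widely among themselves (29.3 ± 12.5 CPM, SD, n = 3). The log2 FC was -2.12 (SE 0.39, adjusted p = 0.0041). In IL22 the gene had 29.1, 30.2 and 25.7 CPM in control and 12.7, 14.6 and 13.6 in salt. These groups did not overlap either, and the spread within each was small, but the log2 FC of -1.05 did not pass in the fit over all libraries (SE 0.37, adjusted p = 0.122). It passed in only 2 of 18 alternative fits, over which the adjusted p reached 0.304. These were the fit with IL22 libraries alone (adjusted p = 0.0145) and that without replicate 3 of OLESA salt (adjusted p = 0.0374).

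PIP2;4, for which high water channel activity was also found in yeast, had the largest log2 FC of the tested PIP genes in IL22. Its CPM were 21.5, 20.8 and 31.6 in IL22 control and 6.94, 6.90 and 6.28 in IL22 salt, a mean of 24.6 ± 6.05 against 6.70 ± 0.372 (SD, n = 3 per group). The log2 FC was -1.87 (SE 0.24, adjusted p = 0.00168), that is 3.67-fold lower under salt. In OLESA it had 17.8, 15.8 and 25.2 CPM in control and 16.1, 13.0 and 10.5 in salt. These groups overlapped, and the log2 FC of -0.57 did not pass (SE 0.23, adjusted p = 0.0929).

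PIP2;1, a contributor to water uptake in roots, had 203, 246 and 328 CPM in OLESA control and 191, 178 and 205 in OLESA salt. In IL22 it had 343, 231 and 305 CPM in control and 174, 244 and 179 in salt. The groups overlapped by 1 library in each genotype. The log2 FC of -0.44 in OLESA (SE 0.21, adjusted p = 0.144) and of -0.56 in IL22 (SE 0.21, adjusted p = 0.144) did not pass the test.

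PIP2;7, a water channel studied in rice for chilling tolerance, had higher group means under salt in both genotypes, without passing the test. It ranged from 213 to 539 CPM in OLESA control, with 373 in the other library, and had 503, 676 and 496 CPM in OLESA salt. In IL22 it had 411, 319 and 566 CPM in control and 456, 726 and 504 in salt. Its libraries varied widely within groups, with an SD of 163 CPM around a mean of 375 in OLESA control. The log2 FC was 0.57 in OLESA (SE 0.31, adjusted p = 0.195) and 0.38 in IL22 (SE 0.31, adjusted p = 0.518).

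The remaining pair of PIP2 genes, both described mainly from roots, was close to the limit of detection. PIP2;5 had 26, 11 and 33 counts in OLESA control, 11, 10 and 13 in OLESA salt, 39, 2 and 11 in IL22 control and 10, 4 and 9 in IL22 salt. Its log2 FC under salt was -1.06 in OLESA (SE 0.67, adjusted p = 0.271) and did not pass. In IL22 the fitted level under salt was 0.499 times that in control (adjusted p = 0.444), and the log2 FC there became 0.08 without replicate 1 of IL22 control, which held 39 of the 52 counts of its group. The untested gene, Os04g0521100, had 5, 5 and 2 counts in OLESA control, 0, 0 and 2 in OLESA salt, 4, 2 and 5 in IL22 control and 12, 3 and 1 in IL22 salt. No difference passed the test for PIP2;5 at this depth, and Os04g0521100 had too few counts for a test. A low value in leaf does not show absence.

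The loci of Os07g0448100, Os07g0448200 and Os07g0448800, which are the PIP2 members 4, 5 and 1, neighbour each other on chromosome 7. In the RefSeq annotation of assembly ASM3414082v1, a build other than that of the files, 1 gene lies between the first pair and 0 between the second. In the order of the deposited IDs, 0 features lie between the first pair and 3 between the second. The sources used here do not state what became of reads matching more than 1 of these related genes, so values that rest on near-identical stretches are uncertain.

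**Figure D2:**
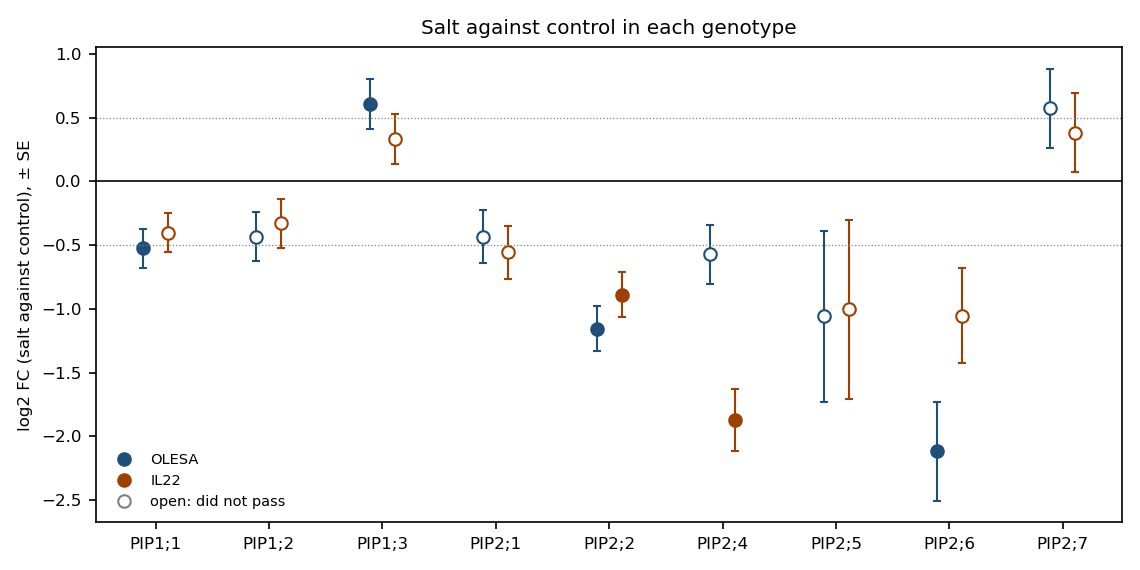
Log2 FC of salt against control (vertical axis, ± SE) for the 9 tested PIP genes (horizontal axis) in OLESA and IL22, with dotted lines at the thresholds of -0.5 and 0.5. Filled symbols passed the test: 4 genes in OLESA, 1 of them above 0, and 2 genes in IL22, both below 0.

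Counted over these genes, salt raised 1 and lowered 3 of the 9 tested PIP genes in OLESA, where 11.7% of all tested features rose and 9.89% fell. The median log2 FC of the 9 genes was -0.53, against 0.01 over all tested features. There were 7 genes with a negative and 2 with a positive log2 FC. In 3 of the 9 genes all salt libraries lay below all controls, against 19.7% of all features. The share called in either direction was 21.6% of all features, and 9.05 to 27.5% when 1 library was left out, lowest without replicate 2 of OLESA control and highest without replicate 1 of IL22 control. The 2 weaker calls depended on single libraries. That of Os02g0666200 was lost without replicate 2 or 3 of OLESA control (adjusted p = 0.0877 and 0.0700) and without replicate 1, 2 or 3 of OLESA salt (0.0524, 0.0880 and 0.0559). That of Os02g0823100 was lost without replicate 2 or 3 of OLESA control (adjusted p = 0.131 and 0.162), replicate 1 or 3 of OLESA salt (0.108 and 0.132) and replicate 1, 2 or 3 of IL22 salt (0.0669, 0.0597 and 0.0508). Both were also lost when the 2 OLESA groups were fitted alone (0.0517 and 0.0687), and the latter with upper-quartile factors (0.0694) or without the filter (0.0611).

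In IL22, salt raised 0 and lowered 2 of the 9 genes, where 2.92% of all tested features rose and 2.25% fell. With p unadjusted (0.05, fold threshold kept) the count was 0 higher and 4 lower, against 8.14 and 9.82% of all features. DESeq2 also called 0 genes higher and 2 lower, where it called 8.70% of the features with an adjusted p in either direction. The median log2 FC of the 9 genes was -0.56, against -0.03 over all tested features, again with 7 negative and 2 positive values. In 3 genes all salt libraries lay below all controls, against 12.2% of all features. The share called in either direction was 5.17% of all features. It was 14.7% without replicate 1 of IL22 control, where the same 2 PIP genes were called, and 1.64 to 2.83% without replicate 2 or 3 of IL22 control or any 1 library of IL22 salt. The call of Os02g0629200 was lost without replicate 1 of IL22 salt (adjusted p = 0.0772) and without replicate 3 of IL22 salt (adjusted p = 0.0513).

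The comparison of IL22 with OLESA asked whether the introgressions in IL22 went along with other PIP levels. None of the 10 loci lies on chromosomes 1 or 3, where the study placed the large *indica* segments. It also placed scattered *indica* genes on the other chromosomes, but none on chromosome 9, where PIP2;7 lies. Whether any of the remaining loci is among those scattered genes was not analysed here. Without salt, 0 of the 9 tested genes passed, where 1.38% of all tested features did. Without replicate 1 of IL22 control, 18.9% of all features passed and still 0 of the PIP genes. It was 0.741 to 0.872% without replicate 2 or 3 of either control group. The count was also 0 by DESeq2, which called 5.89% of the features with an adjusted p and gave PIP2;5 none. At an unadjusted p of 0.05, which 15.6% of all features reached with that fold threshold, it was 0 as well. The log2 FC ran from -0.55 to 0.34 and the adjusted p from 0.363 to 0.990. The genotypes overlapped in each of the 9 genes, while 7.47% of all features had every IL22 library above and 8.44% every IL22 library below the OLESA libraries. The 95% intervals of the 3 PIP1 genes lay within -0.46 and 0.76. That of Os07g0448200, the gene with few counts, reached from -1.95 to 0.86, and its log2 FC went from -0.55 to -1.63 without replicate 1 of IL22 control (adjusted p = 0.123) and to -0.09 without replicate 2.

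Under salt, 1 of the 9 genes was lower in IL22 than in OLESA and 0 were higher, where 1.65% of all tested features were lower and 1.20% higher. The gene was PIP2;4, with 6.94, 6.90 and 6.28 CPM in IL22 salt against 16.1, 13.0 and 10.5 in OLESA salt. The groups did not overlap, as in 16.3% of all features in that direction, and the log2 FC was -0.97 (SE 0.24, adjusted p = 0.0495). The share called in either direction was 2.85% of all features, 8.44% without replicate 1 of IL22 control and 0.896 to 1.77% without any 1 library of IL22 salt or replicate 2 of OLESA salt or of OLESA control. This adjusted p is near the threshold. It rose above it without replicate 1 or 2 of OLESA control (0.0622 and 0.0646), replicate 1 or 2 of OLESA salt (0.142 and 0.114), replicate 2 of IL22 control (0.0581) and replicate 1, 2 or 3 of IL22 salt (0.164, 0.126 and 0.169), and with RLE (0.0505) or upper-quartile factors (0.0669).

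PIP2;6 lay the other way under salt. Its 12.7, 14.6 and 13.6 CPM in IL22 salt were all above the 9.74, 7.75 and 2.94 CPM in OLESA salt, as in 15.3% of all features. The log2 FC of 1.01 did not pass (SE 0.38, adjusted p = 0.163). The other 7 genes had a log2 FC between -0.49 and 0.20 and an adjusted p of 0.552 to 0.989. DESeq2 also called 0 genes higher and 1 lower, where it called 6.72% of the features with an adjusted p in either direction. PIP2;6 was the 1 gene higher at an unadjusted p of 0.05, where 7.50% of all features were.

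The interaction of genotype and salt, the difference between the log2 FC under salt in IL22 and that in OLESA, passed for 1 of the 9 genes, where 4.99% of all tested features passed and 3.56% passed with a negative value. It was again PIP2;4, with an interaction of -1.30 (SE 0.33, adjusted p = 0.0457, 95% interval -2.02 to -0.58). It is built from the same 12 libraries as the comparisons above and is not separate support for them. The adjusted p rose above 0.05 without replicate 1, 2 or 3 of OLESA control (0.0710, 0.119 and 0.0641), replicate 1 or 2 of OLESA salt (0.102 and 0.0902), replicate 2 or 3 of IL22 control (0.0970 and 0.119) and replicate 1, 2 or 3 of IL22 salt (0.102, 0.0868 and 0.107), and with upper-quartile factors (0.0573). Without replicate 1 of IL22 control, the library that stood apart, it was 0.0125, while 23.3% of all features then passed. Without any 1 of the libraries at which the call was lost, other than replicate 1 of OLESA control, 0.0891 to 0.267% of all features passed.

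For PIP2;6 the interaction was 1.06, of opposite sign, and did not pass (SE 0.53, adjusted p = 0.230, 95% interval -0.08 to 2.20). The other 7 genes lay between -0.27 and 0.27, with an adjusted p of 0.536 to 0.984. Their intervals still include differences of the size of a called change, so that equal responses in the genotypes were not shown.

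**Figure D3:**
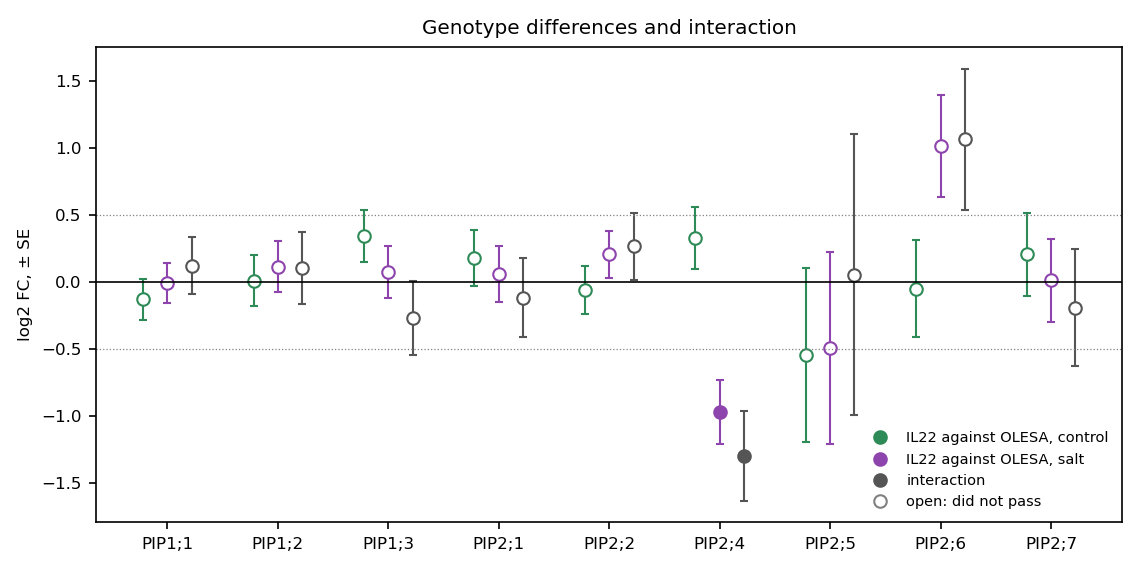
Log2 FC of the genotype comparison (IL22 over OLESA) without and with salt, and the interaction of genotype and salt (vertical axis, ± SE), for the 9 tested PIP genes (horizontal axis). Dotted lines mark -0.5 and 0.5, and the filled symbols, those that passed the test, belong to PIP2;4 in salt at -0.97 and to its interaction at -1.30.

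Summed over the subgroup, the PIP1 genes gave 1436 ± 68.3 CPM in OLESA control, 1114 ± 85.0 in OLESA salt, 1387 ± 224 in IL22 control and 1141 ± 116 in IL22 salt (SD, n = 3 per group). The lowest OLESA control library, at 1360 CPM, lay above the highest OLESA salt library, at 1181. This separation depended on the TMM factors. By library totals alone, replicate 3 of OLESA salt (26489 PIP1 counts of 20541526) was above replicate 3 of OLESA control (29728 of 23578477). In IL22 the sums overlapped, since 1 control library had 1129 CPM and 1 salt library 1269.

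The sum of the PIP2 genes differed by less than the spread between replicates, with 962 ± 284, 895 ± 97.2, 1044 ± 203 and 926 ± 207 CPM in the same order. It joined lower group means of Os02g0629200 and Os07g0448800 under salt with higher group means of Os09g0541000. Neither Os07g0448800 nor Os09g0541000 passed the test for salt in either genotype. The sums over all 10 genes were 2398 ± 350, 2010 ± 14.5, 2432 ± 424 and 2067 ± 316 CPM. Not corrected for gene length, and so of use between libraries only, the number of PIP2 counts per PIP1 count ranged from 0.508 to 0.988 over the libraries, both extremes being OLESA libraries, without salt and with salt.

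The composition of the PIP counts differed more plainly between conditions than their sum. Without salt, PIP2;7 took 10.4 to 19.6% of the PIP counts in OLESA and 15.7 to 20.7% in IL22. With salt, its share was 24.7 to 33.4% in OLESA and 24.2 to 29.9% in IL22. Every salt library had a larger share than every control library. The share of PIP2;2 went the other way, with values of 10.4 to 11.7% in the 6 control libraries and 5.55 to 7.30% in the 6 salt libraries.

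PIP1;1 had a share of 35.9 to 44.0% in OLESA and 35.4 to 36.8% in IL22 without salt, and of 31.3 to 35.5% and 29.9 to 34.6% with it. The 4 genes of low count, PIP2 members 3, 4, 5 and 6, together held 0.702 to 2.63%. Shares are not corrected for gene length, so they compare libraries and not genes. They add up to a fixed total, so a lower share of 1 gene raises those of the others, and were not tested.

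**Figure D4:**
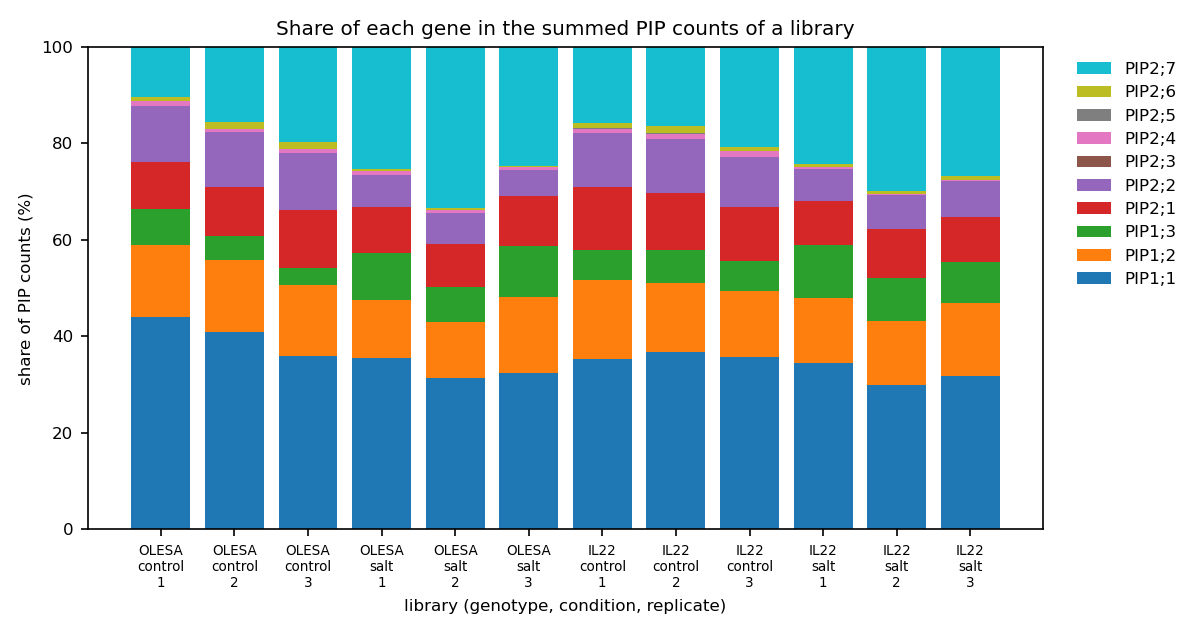
Share of PIP counts (vertical axis, percent, linear) that each of the 10 genes took in each of the 12 libraries (horizontal axis, grouped by genotype and treatment). The segment of PIP2;7 spans 10.4 to 20.7% in the 6 control libraries and 24.2 to 33.4% in the 6 salt libraries.

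Across the 12 libraries, 6 genes, grouped after their values were seen, had positive correlations with each other. These were PIP1;1, PIP1;2, PIP2;1, PIP2;2, PIP2;4 and PIP2;6, whose 15 pairs had a Pearson's r of log2 CPM from 0.50 to 0.93. The highest was that of PIP1;1 with PIP2;2, a PIP1 and a PIP2 gene. With the group means removed, the same 15 pairs ran from -0.12 to 0.88, and 14 were above 0. These values are descriptions over 12 points that share library, depth and treatment, and part of each r is the difference between the salt and control groups.

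After that removal, PIP1;2 and PIP2;1 were the pair with the highest r, at 0.88. The 8 pairs of PIP1;3 had an r from -0.69 to 0.30 over the libraries. Those of PIP2;7 ran from -0.33 to 0.30, but after removal of the group means they reached 0.84, and 7 of 8 were above 0. Of all 36 pairs, 30 were above 0 after that removal. Several libraries were high or low for many PIP genes together. Replicate 2 of IL22 control was the lowest of its group in 9 of 10 genes, replicate 3 of OLESA control the highest in 7 of 10, and replicate 2 of IL22 salt the highest in 7 of 10.

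**Figure D5:**
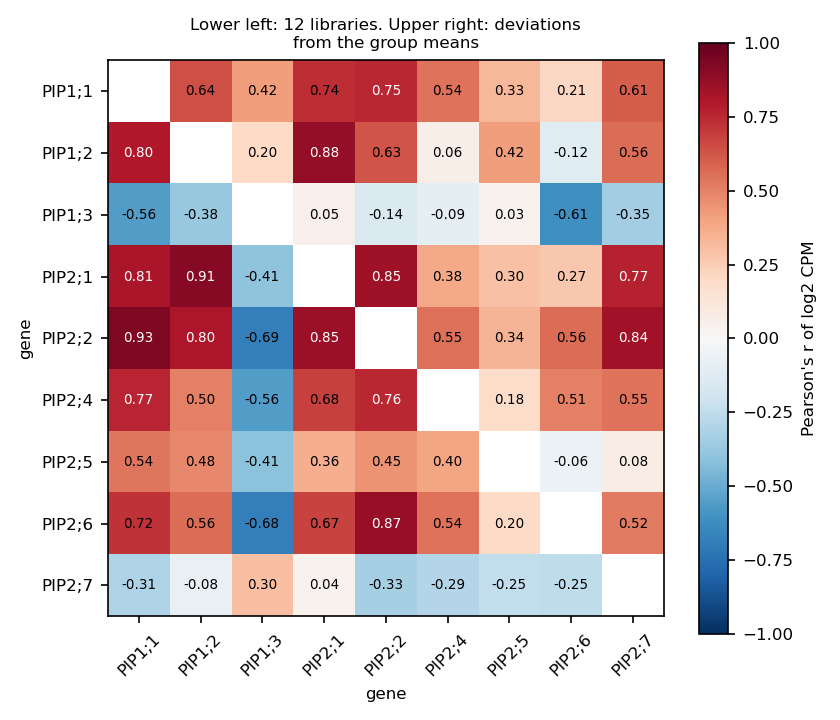
Pearson's r of log2 CPM between the 9 tested PIP genes (both axes), over the 12 libraries in the lower left and of the deviations from the group means in the upper right. The lower left holds negative values for most pairs of PIP1;3 and of PIP2;7, and the upper right is above 0 in 30 of 36 pairs.

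The features outside the family most like the mean of the standardized log2 CPM of the tested PIP genes, among 11929 features with a rice locus ID and a mean log2 CPM of 3 or more, were Os12g0482700 (r = 0.913) and Os08g0564500 (r = 0.911) over the 12 libraries. The lowest values were those of Os09g0525600 (r = -0.930) and Os02g0689800 (r = -0.912). These IDs are not annotated in the sources used here.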

How the data were processed

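Leaf RNA was sequenced from 12 libraries, 3 in each of 4 groups. Raw counts per gene were deposited by the authors. Per the labels, libraries were stranded (TruSeq), and the processing notes name bcl2fastq 2.20, cutadapt 1.11, STAR 2.5.2b, featureCounts 1.5.1 and genome build IRGSP-1.0. How multi-mapped reads were treated is not stated in these sources.

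Testing used edgeR 4.0.16 under R 4.3.3. Features with low counts were removed with filterByExpr (minimum count 10, minimum total 15), which left 20760 of 36844 features. TMM factors and a quasi-likelihood fit with 1 mean per group over all 12 libraries were used, and p-values were adjusted by Benjamini-Hochberg over all tested features. The log2 CPM used for correlations had a prior count of 2. All 10 PIP genes are named, besides the 2 most and the 2 least similar features. Members and lists were chosen with earlier results of these data known. The code was tested on simulated data, in which 48 to 82 of 100 features changed 4-fold were called. Of 100 features changed 2-fold, 1 was called for the interaction and 21 to 32 for the other comparisons. False calls numbered 2 to 9 per comparison.

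Alternatives were RLE and upper-quartile factors, library totals, DESeq2 1.42.0, no filter, fits of the compared groups alone, a replicate block and leaving out each library. No 2 libraries were identical. Other aquaporins, leaf markers, sequences and gene lengths were not used here, because 1 of 36844 IDs matched the reference table. PIP names were looked up there by name (10 of 10), and it holds 11 PIP names.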

Additional observations from a re-analysis of the deposited data

Results flagged for a closer look

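The response of PIP2;4 to salt differed between the genotypes by the test of the difference itself. The log2 FC under salt was -1.87 in IL22 and -0.57 in OLESA, an interaction of -1.30 (SE 0.33, edgeR's quasi-likelihood test, adjusted p = 0.0457). All 3 IL22 salt libraries (6.28 to 6.94 CPM) lay below all 3 OLESA salt libraries (10.5 to 16.1 CPM), and the control libraries overlapped. The adjusted p stayed at or below 0.05 in 5 of 17 alternatives and had a range of 0.00919 to 0.119 over them, while the log2 value stayed between -1.51 and -1.08. With 3 libraries per group, single genes were not screened for outlying values.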

How the results depend on the processing

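Of 801 alternative values for single genes, 716 kept their direction and side of the threshold, 43 lost a call, 2 gained one and 40 changed sign. Most of the 801 belong to results without a call in the test over all 12 libraries, so they had none to lose. None of the 40 sign changes had a call, and their largest size was 0.40 (lowest adjusted p 0.670). The calls of PIP2;2 and PIP2;6 in OLESA and of PIP2;4 in IL22 held in 18 of 18 alternatives, with adjusted p up to 0.00928, 0.0189 and 0.0110. The other calls for salt held in 11 of 18 alternatives (PIP1;1 in OLESA), 7 of 18 (PIP1;3 in OLESA) and 16 of 18 (PIP2;2 in IL22). Those of PIP2;4 held in 7 of 18 for genotype under salt and in 5 of 17 for the interaction. For these calls the cause of the changes was not tested. The 4 PIP genes called for salt in OLESA became 2 when the 2 groups were fitted alone, where 21.1% of all features were called. Without 1 library they became 2 to 4, where 9.05 to 27.5% of all features were. The 2 called in IL22 became 1 to 3 without 1 library (1.64 to 14.7% of all features). The 1 gene called for genotype under salt became 0 with RLE or upper-quartile factors (2.74 and 2.72% of all features). Without 1 library it became 0 to 1 (0.896 to 8.44%). The 1 gene called for the interaction became 0 with upper-quartile factors (4.27%) and 0 to 1 without 1 library (0.0891 to 23.3%).

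With the replicate block, 2 genes were called for salt in OLESA (16.6% of all features), 0 for genotype under salt (1.63%) and 0 for the interaction (0.111%). Over all features the block took the interaction calls from 1036 to 23, DESeq2 gave 2415, and leaving out 1 library gave 19 (replicate 2 of IL22 control) to 4949 (replicate 1 of IL22 control). In the same fits without 1 library, calls ran from 1936 to 5841 for salt in OLESA, 348 to 3125 for salt in IL22, 158 to 4000 for genotype in control and 190 to 1790 for genotype under salt, highest each time without replicate 1 of IL22 control. Same-numbered libraries did not deviate together (r of -0.33 to 0.20 in 12 pairs, 3 of them over 0.1), so the numbers were not taken as pairs.

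The sum over all PIP genes in OLESA salt, 2010 CPM, was 1939 with upper-quartile factors and 2049 with library totals alone, and the PIP1 sum in OLESA control, 1436 CPM, was 1327 with library totals alone. Log2 FC values near 0 changed sign as follows. For genotype under salt, PIP1;1 was 0.064 with upper-quartile factors, 0.0089 without the filter and 0.0095 with the 2 groups alone, and PIP2;7 was -0.0032 with the block. For genotype in control, PIP1;2 was -0.0024 with RLE, -0.0044 with upper-quartile factors, -0.0029 with DESeq2 and -0.020 without the filter.

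Without 1 library, the ranges of those that changed sign were, for genotype under salt, -0.095 to 0.052 (PIP1;1), -0.071 to 0.20 (PIP1;3), -0.13 to 0.14 (PIP2;1) and -0.23 to 0.16 (PIP2;7). For genotype in control they were -0.14 to 0.16 (PIP1;2), -0.16 to 0.060 (PIP2;2), -0.35 to 0.24 (PIP2;6) and -0.079 to 0.55 (PIP2;7). For the interaction they were -0.049 to 0.25 (PIP1;2), -0.31 to 0.032 (PIP2;1), -0.40 to 1.14 (PIP2;5) and -0.53 to 0.093 (PIP2;7), and for salt in IL22 -1.46 to 0.077 (PIP2;5). Depth limits the 2 genes with few counts.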
